A study of Mus musculus with 10 samples.

Results

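The olfactory receptor (OR) genes numbered Olfr886 to Olfr986 form the more distal of the large OR clusters on mouse chromosome 9. Members were taken as the probe sets whose platform annotation gave a single symbol with a number in that range, which yielded 71 of 1034 OR probe sets and of 35556 probe sets in all. All 71 matched a RefSeq gene on chromosome 9. Of the 101 numbers in the range, 30 had no such probe set, and 6 further probe sets that name a member together with other ORs were kept apart. RefSeq lists 68 members as protein coding, 2 as transcribed pseudogenes and 1 as a miscellaneous RNA.

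At 5 weeks of age, RNA of the entire main olfactory epithelium (MOE) was taken from mice and hybridized to Mouse Gene 1.0 ST arrays. The 4 H2be-GF arrays came from mice of 1 transgenic founder line, crossed to C57Bl/6, that carry several copies of a construct in which the Omp promoter drives FLAG-tagged H2BE, a histone H2B variant, in mature olfactory neurons, and the line leaves a band of neurons near zone 2 without transgene product. The 6 WT arrays carry no transgene, no other allele or agent is given for either genotype, and each H2be-GF array pools more animals than each WT array. Sex is stated only as an equal mixture over the series. The labels call the arrays of a genotype replicates, so the p-values below measure the spread between these pools.

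In mice each mature olfactory neuron transcribes 1 allele of 1 OR gene, chosen from a large repertoire that lies in clusters on many chromosomes. The receptor sits in the cilia, where an odorant that binds it activates the G protein Golf, adenylyl cyclase and a cyclic-nucleotide-gated channel, and it also helps to direct the axon to its glomerulus in the olfactory bulb. A neuron with a given receptor is found within a characteristic zone of the epithelium. The level of an OR transcript in whole MOE therefore reflects both how many neurons express it and how much RNA each holds, and these cannot be told apart in bulk tissue.

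No receptor of the cluster passed the test in H2be-GF MOEs. Of the 50 members with a mean log2 value above 7, 0 were called at an adjusted p under 0.05 over the 748 ORs above that level, where 9.89% of ORs were called, and the smallest adjusted p was 0.0616, of Olfr888. Of the 69 members with a mean above 5, 0 were called over all 23194 probe sets tested, where 0.0862% were called, with a smallest adjusted p of 0.387. At an unadjusted p under 0.05, 10 of the 69 members (14.5%) were higher in H2be-GF, against 11.0% of ORs above 5, and 1 (1.45%) was lower, against 8.94% of ORs. In 1 member (1.45%) the arrays of the genotypes did not overlap, which occurred in 7.27% of ORs.

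The differences were small and mostly of one sign. The H2be-GF mean exceeded the WT mean in 39 of the 50 members above 7 (78.0%), against 53.7% of the 748 ORs, and in 52 of all 71 members. The median difference of these 50 members, H2be-GF minus WT, was 0.12 on the log2 scale, and that of all 748 ORs was 0.016 and that of all probe sets tested 0.0079. Differences over 0.3 in size occurred in 2 of the 50 members (4.0%) and in 11.6% of the 698 other ORs. Of the 19 members between 5 and 7, 12 had a positive difference, with a median of 0.043, and 6 differed by over 0.3. The 2 remaining members, Olfr908 and Olfr936, lay at or below 5 and were not tested.

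**Figure D1:**
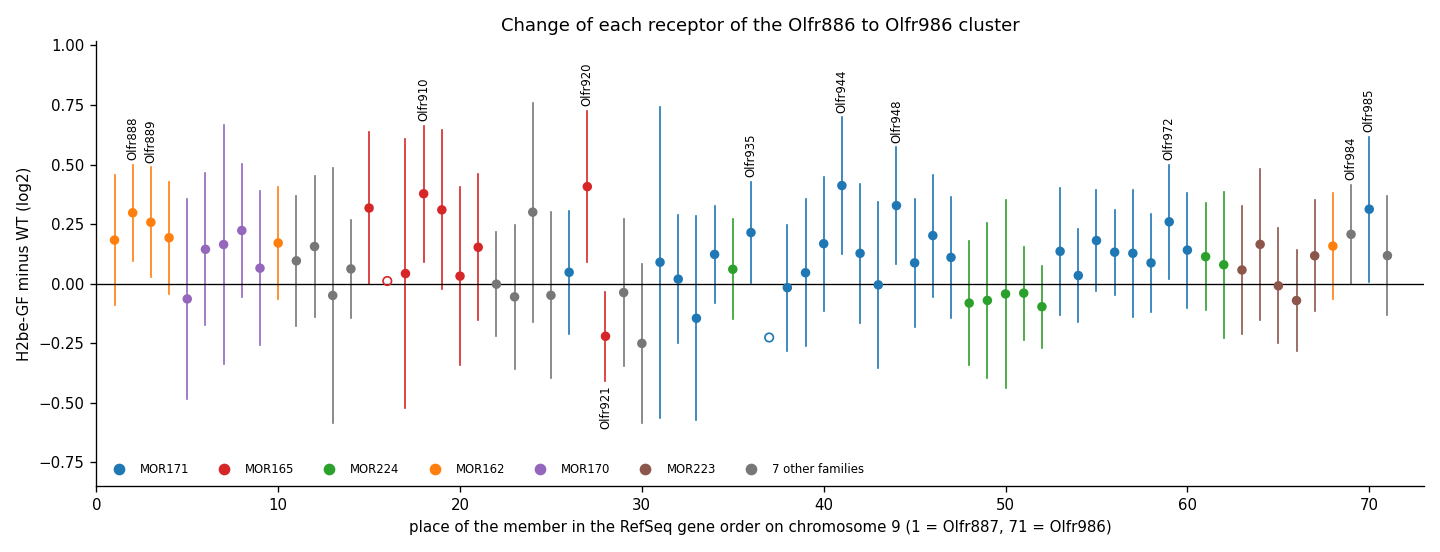
Difference between the H2be-GF and WT means (y axis, log2) for the 71 members in chromosome order (x axis, place in the RefSeq gene order), coloured by MOR family; vertical lines are 95% intervals from limma, and open circles mark the 2 members at or below 5, which have none. The 11 labelled members had an unadjusted p under 0.05, 10 of them above 0, and most other points lie above 0 with intervals that cross it.

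The precision differed with the level. The standard error of the difference had a median of 0.12 in members above 7 and of 0.15 in members between 5 and 7. For 47 of the 50 members above 7 the 95% interval lay within a 1.5-fold difference either way, and the widest bounds were -0.58, of Olfr923, and 0.67, of Olfr894. A missed threshold thus leaves room for moderate differences in single receptors, and the number of arrays limits the precision.

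Olfr888, of family MOR162 and the second member in the chromosome order, had the smallest p of the cluster. Its log2 values were 8.66, 8.32, 8.46 and 8.41 on the H2be-GF arrays, and 8.29, 8.32, 8.01, 8.27, 8.06 and 8.02 on the WT arrays. Every H2be-GF array lay above every WT array, although the lowest H2be-GF value and the highest WT value, 8.319 and 8.316, nearly touched. The difference was 0.30 ± 0.092 (SE), a 1.23-fold higher level, with an adjusted p over ORs of 0.0616, an unadjusted p of 0.00733 and a two-sided exact permutation p of 0.0143, the smallest possible value over the 210 assignments of arrays being 0.00476. The adjusted p ranged over 20 alternatives from 0.0282 to 0.426, and Olfr888 was called in 5 of them. It was also called in a fit limited to probe sets above 7, which is not among the 20.

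The neighbours of Olfr888 showed the same sign. Olfr889 measured 7.83, 7.61, 7.73 and 7.35 in H2be-GF, against 7.39, 7.23, 7.52, 7.57, 7.26 and 7.27 in WT. Of its H2be-GF arrays 3 lay above the highest WT array, and the difference was 0.26 ± 0.11 (SE), with an adjusted p of 0.167 over ORs. All 6 members of MOR162 (Olfr887 to Olfr890, Olfr901 and Olfr983) had a positive difference, between 0.16 and 0.30. Olfr887 to Olfr890 are the first 4 members in the chromosome order, while Olfr901 is the 10th and Olfr983 the 68th of the 71. Some of the shared probe sets kept apart name Olfr887, Olfr889, Olfr901 and Olfr983 together, so the values of these members may not be separate measurements.

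The first coding bases of Olfr888 are shown beside those of Olfr890, its closest match over these bases, to show how alike the coding starts of members can be. They are taken from RefSeq on GRCm38.p6 and printed 5′ to 3′ from the start codon, with the bases that differ between the pair in capitals.
Olfr888 (chr9:38108688-38108737, + strand): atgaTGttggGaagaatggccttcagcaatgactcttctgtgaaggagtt
Olfr890 (chr9:38143137-38143186, + strand): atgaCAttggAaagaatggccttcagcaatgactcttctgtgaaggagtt
The pair agrees at 47 of 50 bases. Olfr890 averaged 7.10 ± 0.21 in H2be-GF (SD, n = 4) and 6.91 ± 0.15 in WT (SD, n = 6), a difference of 0.19 with an unadjusted p of 0.0989 by limma. Olfr890 was chosen for its sequence, after its values were known. Likeness beyond these 50 bases was not measured. If it extends to the probes, a probe set may also bind the transcript of the other gene, and its value is uncertain as a measure of 1 gene. Probe sequences were not used here.

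MOR165, with 9 members from Olfr907 to Olfr921, spanned differences from -0.22 to 0.41. Its members had a median difference of 0.15, and 8 of 9 were positive. Olfr920 measured 7.06, 7.24, 7.29 and 6.91 in H2be-GF, against 7.15, 6.64, 6.52, 6.92, 6.33 and 6.74 in WT. Its H2be-GF arrays lay high but 2 WT arrays reached into their range, and the difference was 0.41 ± 0.14 (SE; adjusted p = 0.449 over all probe sets). Olfr921, the next member on the chromosome and of the same family, measured 8.32, 8.27, 8.42 and 8.33 in H2be-GF, against 8.73, 8.69, 8.62, 8.50, 8.31 and 8.48 in WT.

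Olfr921 was the only member with an unadjusted p under 0.05 and a lower level in H2be-GF. The difference was -0.22 ± 0.085 (SE; unadjusted p = 0.0242, adjusted p = 0.141 over ORs), and its 4 H2be-GF arrays all lay below the WT mean, which held for no other member above 5 and for 14.4% of ORs above 5. WT 5 lay among the H2be-GF arrays, while the other 5 WT arrays lay above them. Adjacent receptors of 1 family thus stood on opposite sides of 0, with intervals of 0.091 to 0.72 for Olfr920 and -0.41 to -0.035 for Olfr921 that do not overlap. That difference between members was not tested.

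Further receptors of MOR165 had positive differences. Olfr910 measured 7.78, 7.96, 7.63 and 7.39 in H2be-GF, against 7.57, 7.54, 7.28, 7.20, 7.01 and 7.28 in WT. The highest 3 H2be-GF arrays lay above all WT arrays, and the difference was 0.38 ± 0.13 (SE), 1.30-fold, with an adjusted p of 0.102 over ORs that ranged from 0.0263 to 0.362 over 20 alternatives. Olfr912, named after its values were seen as the receptor whose upstream sequence is most like that of Olfr910, averaged 8.66 ± 0.21 in H2be-GF (SD, n = 4) and 8.35 ± 0.30 in WT (SD, n = 6), a difference of 0.31 with an adjusted p of 0.254 by limma. Olfr911-ps1, a pseudogene that lies next to Olfr910, was among the 5 dimmest members with 5.63 ± 0.49 in H2be-GF (SD, n = 4) and 5.59 ± 0.46 in WT (SD, n = 6).

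The 250 bases before the annotated transcript starts of Olfr910 and Olfr912 (RefSeq, GRCm38.p6) are printed because they were the most alike of the cluster. The capitals mark the longest run they share, of 19 bases.
Olfr910 (chr9:38537632-38537881, + strand): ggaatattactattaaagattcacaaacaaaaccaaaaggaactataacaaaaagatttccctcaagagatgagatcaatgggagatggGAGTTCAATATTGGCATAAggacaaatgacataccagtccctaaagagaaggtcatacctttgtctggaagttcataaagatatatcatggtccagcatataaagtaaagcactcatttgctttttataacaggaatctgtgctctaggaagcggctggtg
Olfr912 (chr9:38579994-38580243, + strand): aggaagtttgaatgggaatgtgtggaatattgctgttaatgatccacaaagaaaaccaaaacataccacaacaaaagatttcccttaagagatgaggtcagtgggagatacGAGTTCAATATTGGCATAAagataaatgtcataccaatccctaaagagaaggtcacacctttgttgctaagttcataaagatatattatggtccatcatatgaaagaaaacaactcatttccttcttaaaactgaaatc
A global alignment left 194 identical bases in the 250-base windows of this pair, against a median of 149 over the 136 pairs of the 17 members whose annotated start is not a start codon. The windows of 300 bases around the start (250 before, 50 after), found for 61 of the 71 members, were searched on both strands for 2 motifs tied to OR promoters. The core of the Olf1/Ebf site, CCCNNGGG, was in 1 of 62 windows (1.61%), that of Olfr983, against 3.06% of the 948 windows of ORs and 13.7% of 32851 windows of all genes. The homeodomain motif TAATTA was in 10 of 62 windows (16.1%), against 18.6% of OR windows and 5.29% of all windows. Its 10 windows belong to Olfr906, Olfr924, Olfr926, Olfr934, Olfr937, Olfr944, Olfr954, Olfr978, Olfr979 and Olfr984, and the windows of Olfr910 and Olfr912 hold neither motif. In 44 members the annotated start is the start codon, so these windows may not reach the promoter.

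MOR171 was the largest family, with 26 members that run from the 26th to the 70th place of the cluster, interleaved with other families. Its median difference was 0.13, 22 of 26 members were positive, and 5 had a positive difference at an unadjusted p under 0.05. Olfr944 measured 6.63, 7.12, 6.74 and 6.82 in H2be-GF, against 6.45, 6.68, 6.13, 6.56, 6.56 and 6.13 in WT. Only WT 2 reached above the lowest H2be-GF array, and the difference of 0.41 ± 0.13 (SE), 1.33-fold, was the largest of the cluster, with an unadjusted p of 0.00885 and an adjusted p of 0.408 over all probe sets. Olfr948 measured 6.54, 6.48, 6.28 and 6.21 in H2be-GF, against 5.90, 6.13, 5.72, 6.12, 6.16 and 6.26 in WT.

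The arrays of Olfr948 overlapped only through WT 6, and the difference was 0.33 ± 0.11 (SE; adjusted p = 0.430 over all probe sets). Olfr944 and Olfr948 lie 3 places apart and both are dim. Their coding starts are given to show that these are alike but distinct, with differing bases in capitals.
Olfr944 (chr9:39217359-39217408, + strand): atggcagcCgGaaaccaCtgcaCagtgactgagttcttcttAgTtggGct
Olfr948 (chr9:39319563-39319612, - strand): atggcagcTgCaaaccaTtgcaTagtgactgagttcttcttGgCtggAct
They differ at 7 of 50 bases. The remaining MOR171 receptors with an unadjusted p under 0.05 were Olfr935 (difference 0.21 ± 0.096, SE; adjusted p = 0.208 over ORs), Olfr972 (0.26 ± 0.11, SE; adjusted p = 0.178 over ORs) and Olfr985 (0.31 ± 0.14, SE; adjusted p = 0.582 over all probe sets). Without H2be-GF 1 the difference of Olfr985 was 0.16. In Olfr935 and Olfr985 the spread over arrays was wider in H2be-GF (SD 0.22 and 0.35, n = 4) than in WT (SD 0.092 and 0.15, n = 6). Olfr984, the sole member of MOR239 and named after its values were seen, had an unadjusted p of 0.0498 with a difference of 0.21.

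**Figure D2:**
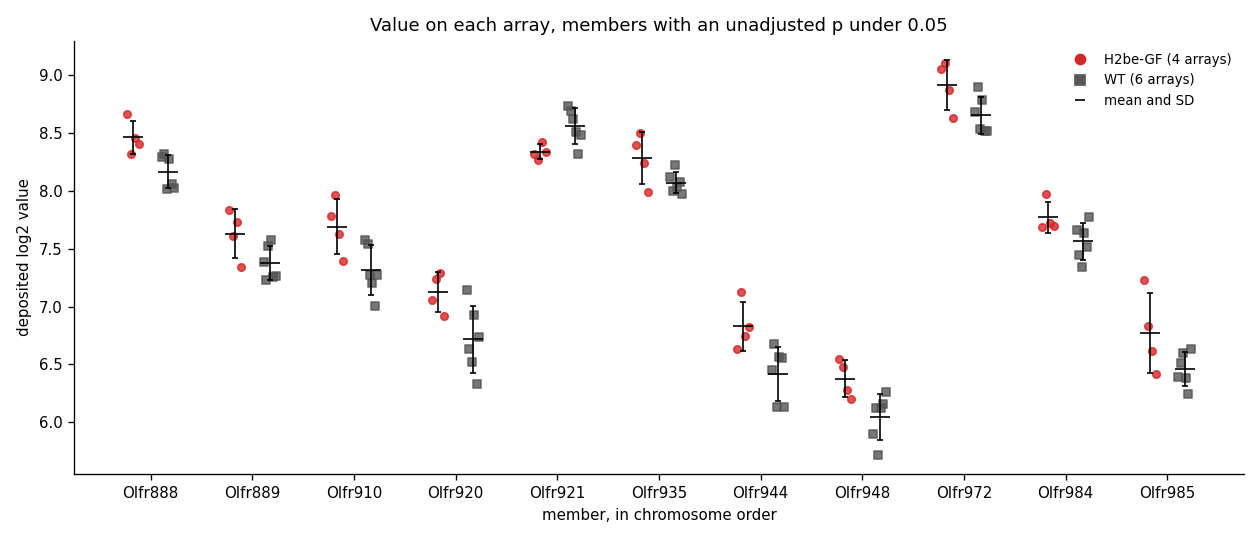
Deposited log2 values (y axis) of the 11 members with an unadjusted p under 0.05 (x axis, in chromosome order) on each H2be-GF array (circles, n = 4) and each WT array (squares, n = 6), with mean and SD. Olfr888 is the only member whose arrays do not overlap between the genotypes, and Olfr921 the only one whose H2be-GF mean lies below the WT mean.

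The brightest members of the cluster belonged to MOR171. Averaged over all arrays, Olfr957 stood highest at 9.25, followed by Olfr969 at 9.17, Olfr972 at 8.76, Olfr968 at 8.72 and Olfr937 at 8.51. Olfr957 and Olfr969 were the only members above 9, and 18 members lay above 8. Levels of different probe sets are not per length and depend on their probes, so this order is one of array signal. Olfr957 averaged 9.32 ± 0.17 in H2be-GF (SD, n = 4) and 9.21 ± 0.21 in WT (SD, n = 6), a difference of 0.11 that did not exceed the spread between arrays. Olfr937 averaged 8.50 ± 0.26 in H2be-GF (SD, n = 4) and 8.51 ± 0.16 in WT (SD, n = 6).

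Several members have coding starts that are nearly the same as those of another member, and likeness beyond the first 50 bases was not measured. The coding starts of the 3 most alike pairs are shown because the values of such probe sets may not belong to 1 gene, and the bases that differ within a pair are in capitals.
Olfr968 (chr9:39772749-39772798, - strand): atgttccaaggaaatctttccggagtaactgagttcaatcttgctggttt
Olfr972 (chr9:39873277-39873326, + strand): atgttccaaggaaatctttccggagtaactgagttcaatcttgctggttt
Olfr969 (chr9:39795377-39795426, + strand): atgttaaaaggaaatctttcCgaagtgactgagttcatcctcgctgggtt
Olfr970 (chr9:39819641-39819690, + strand): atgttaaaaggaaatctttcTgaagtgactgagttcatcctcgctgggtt
Olfr961 (chr9:39646728-39646777, + strand): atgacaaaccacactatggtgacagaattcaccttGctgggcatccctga
Olfr963 (chr9:39669059-39669108, + strand): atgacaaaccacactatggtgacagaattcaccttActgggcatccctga
Olfr968 and Olfr972 lie on opposite strands and do not differ over these 50 bases, and each of the other pairs differs at 1 base. These were the 3 most alike of the 946 pairs among the 44 members that could be compared, and 7 pairs reached 90% identity. The median identity was 52% for pairs of 1 MOR family and 34% for pairs of different families.

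The differences between the genotypes were set side by side for these pairs. Olfr972 measured 9.05, 9.10, 8.87 and 8.63 in H2be-GF, against 8.68, 8.89, 8.53, 8.78, 8.52 and 8.52 in WT. Olfr968 measured 8.93, 8.83, 8.94 and 8.61 in H2be-GF, against 8.75, 8.74, 8.48, 8.85, 8.55 and 8.50 in WT, a difference of 0.18 beside 0.26 for Olfr972. In both receptors H2be-GF 4 lay lowest among its genotype and within the WT range. Olfr969 and Olfr970 differed by 0.13 each with all arrays, but Olfr970 by 0.035 without H2be-GF 2 and by 0.046 without WT 6, while Olfr969 stayed at 0.10 or above with any 1 array left out. Olfr961 and Olfr963 differed by -0.040 and -0.096. None of these 6 passed the test over ORs, and where 2 genes share probes their values are not separate measurements. Less alike pairs, named after their values were seen, could differ more: Olfr916 and Olfr917 (94% identity) had differences 0.36 apart, and Olfr930 and Olfr933 (92%) 0.27 apart. The median distance between the differences of a pair was 0.079 over the 7 pairs at or above 90% identity, 0.096 over 58 pairs from 70% to 90%, 0.15 over 263 pairs from 50% to 70% and 0.12 over 618 pairs below 50%.

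MOR224, which includes Olfr961 and Olfr963, was the largest family without a shared positive sign. Of its 8 members 3 had a positive difference and 5 a negative one, with a median of -0.041 and a range of -0.096 to 0.11. Both MOR164 members, Olfr918 and Olfr923, had negative differences, and Olfr923 had the lowest of the cluster with -0.25 ± 0.15 (SE; adjusted p = 0.373 over ORs). Of the 5 members of MOR170, 4 were positive, as were 3 of the 5 members of MOR223. The longest run of 1 sign along the chromosome covered 12 members, Olfr965 to Olfr979, all positive, and of MOR171, MOR224 and MOR223. None of these family counts was tested, since the families were described with earlier results known.

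The dimmest members gave values near the lower end of the arrays' range. Olfr936 averaged 4.67 in H2be-GF and 4.89 in WT, with 5.40, 5.22, 5.23 and 2.82 on the H2be-GF arrays and between 4.09 and 5.51 on the WT arrays. Its negative difference rested on H2be-GF 4 alone, and without that array it was 0.39. Olfr908 averaged 4.87 in H2be-GF and 4.86 in WT. Olfr891 (5.70 in H2be-GF and 5.77 in WT) and Olfr917 (5.94 in H2be-GF and 5.64 in WT) also stood among the lowest 5, with intervals of the difference that include 0. No member stood at the arrays' lower limit of 0 on any array.

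Members above 7 that follow each other in the chromosome order of those members were compared with the other pairs. Such neighbours are not always adjacent, since dimmer members and ORs without a probe set of their own can lie between them. Over the 49 neighbouring pairs of members above 7 the median absolute difference between their H2be-GF minus WT differences was 0.092, and it was 0.11 over the 1176 other pairs. By family it was 0.079 over 193 pairs of 1 family and 0.12 over 1032 pairs of different families. Of the 49 neighbouring pairs 29 share a family, and within a family neighbours were not closer, with a median of 0.092. After each array was centred on its mean OR level, the median correlation across the 10 arrays, within genotypes, was 0.19 for neighbouring pairs and 0.038 for other pairs. The pairs share arrays and members, so these are descriptions. Without this centring the median correlation was 0.47 for neighbouring pairs and 0.38 for other pairs. The members that followed Olfr888 most closely were picked on that uncentred scale, within genotypes and over 10 arrays. They were Olfr930 (r = 0.89), Olfr982 (r = 0.83) and Olfr894 (r = 0.81), the highest values in the cluster. None of these receptors lies beside Olfr888, and their differences were -0.15, 0.12 and 0.16, each with an interval that includes 0. With 1 array left out these ranged from -0.34 (without H2be-GF 1) to -0.069 (without H2be-GF 2) for Olfr930, from 0.052 (without H2be-GF 3) to 0.21 (without H2be-GF 2) for Olfr982 and from 0.039 (without WT 3) to 0.32 (without WT 2) for Olfr894.

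The positive sign of the cluster was set beside that of other ORs. The other chromosome 9 cluster, Olfr829 to Olfr885, with 20 ORs above 7, had a median difference of 0.11, 15 positive members and 4 members called higher over ORs. Among the 68 ORs above 7 of Olfr987 to Olfr1145, the next numbers, which form a chromosome 2 cluster, the median was 0.056, with 39 positive, 5 called higher and 3 called lower. The 698 ORs outside Olfr886 to Olfr986 had a median of 0.0065, with 30 called higher and 44 called lower. The members had the narrowest spread of differences of these groups, with an SD of 0.12 against 0.19, 0.24 and 0.20 in the order given, while their median standard error of 0.12 was the highest, against 0.11, 0.11 and 0.10. These groups were compared by description only.

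**Figure D3:**
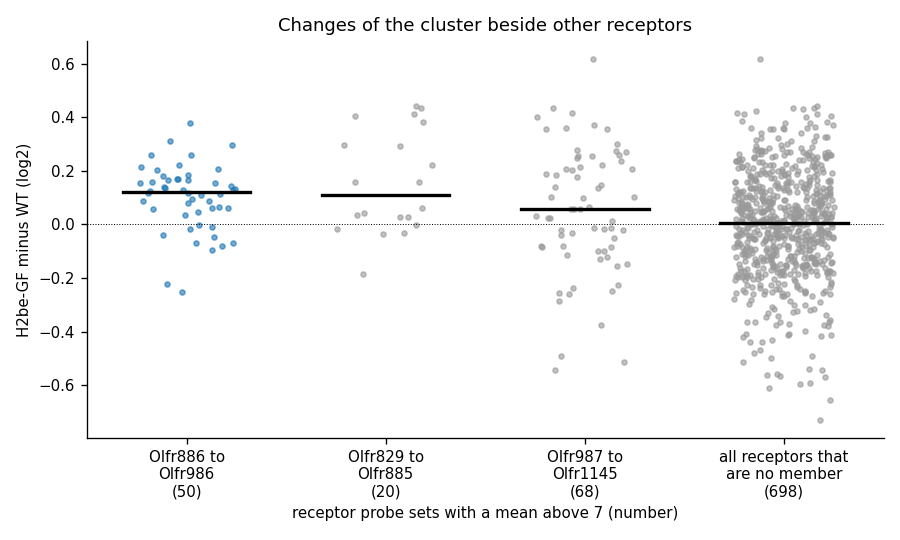
Difference between the H2be-GF and WT means (y axis, log2) of OR probe sets with a mean above 7 in the cluster (left), in Olfr829 to Olfr885, in Olfr987 to Olfr1145 and in all ORs outside the cluster (x axis, with the number of probe sets); bars are medians. The median of the cluster is 0.12 and that of the ORs outside it 0.0065, and the cluster lacks the far points of the other groups.

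The sign of the cluster also varied from array to array. The median over the 50 members of the log2 value minus the WT mean was 0.22, 0.15, 0.15 and -0.074 on the H2be-GF arrays, and 0.069, 0.15, -0.11, 0.076, -0.086 and -0.076 on the WT arrays. H2be-GF 1 and, by a narrow margin (0.149 against 0.147 on WT 2), H2be-GF 2 lay above all WT arrays, while H2be-GF 3 and H2be-GF 4 lay among them, so the genotypes overlap. The same median over the other ORs was 0.12, 0.00010, 0.011 and -0.095 on the H2be-GF arrays, and lay between -0.098 and 0.11 on the WT arrays. The member median thus exceeded that of the other ORs by 0.090, 0.15, 0.13 and 0.021 on the H2be-GF arrays, against 0.0092, 0.042, -0.032, -0.032, 0.012 and 0.010 on the WT arrays. On 3 H2be-GF arrays this excess was higher than on any WT array, and on H2be-GF 4 it lay within the WT range. Each WT array is part of the WT mean it is measured against, which tends to narrow the WT range, and the H2be-GF arrays are not.

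**Figure D4:**
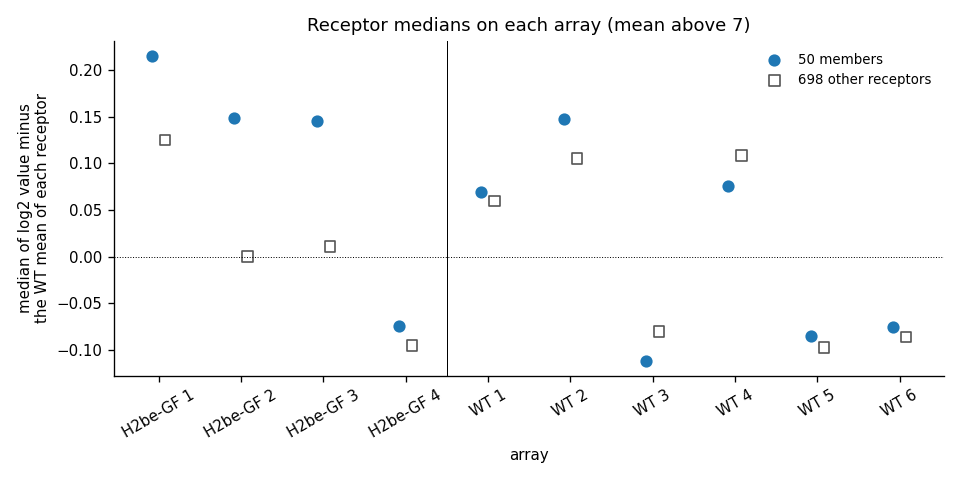
Median over ORs of the log2 value minus each OR's WT mean (y axis) on each array (x axis, H2be-GF left of the line, WT right), for the 50 members above 7 (filled circles) and the 698 other ORs above 7 (open squares). On H2be-GF 1, 2 and 3 the members stand 0.090 to 0.15 above the other ORs, on H2be-GF 4 they stand 0.021 above them, and on the WT arrays the symbols lie within 0.042 of each other. The WT arrays are part of the WT mean they are measured against.

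Leaving out H2be-GF 4 brought 3 members past the threshold over ORs, Olfr889, Olfr910 and Olfr935, when 69 ORs in all were called, against 74 with all arrays, and gave the highest median difference of any array left out, 0.15 over the members above 5 against 0.11 with all arrays. Leaving out WT 2 brought Olfr888 past it, with 85 ORs called in all. Without H2be-GF 1 the median was 0.071 and no member was called. The absence of calls in the cluster thus depended on single arrays for these 4 receptors.

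Xist, which females use for X inactivation, separated the arrays into 2 sets. It was between 11.69 and 11.92 on 5 arrays (H2be-GF 1 and 2, WT 1, 2 and 3) and at most 4.61 on the others (H2be-GF 3 and 4, WT 4, 5 and 6), so each set holds both genotypes. Among the 69 members above 5, 61 had a positive difference in the arrays high in Xist, with a median of 0.16, and 42 in the arrays low in Xist, with a median of 0.046. The sign was the same in both sets in 44 members, 39 positive and 5 negative, and opposite in 25. The median of the other ORs above 7 was 0.015 in the high set and -0.0084 in the low set.

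Single receptors differed in how far the sets agreed. Olfr888 had differences of 0.28 in the high set and 0.31 in the low set, and Olfr920 had 0.38 and 0.44. Olfr948 had 0.60 in the high set and 0.059 in the low set, and Olfr985 had 0.53 and 0.096. The lower level of Olfr921 was -0.39 in the high set and -0.054 in the low set. In MOR171 all 26 members were positive in the high set and 17 in the low set, and the MOR224 median was 0.10 in the high set and -0.16 in the low set. A test of the difference between the sets (interaction term in limma) called 0 of the 69 members, with a smallest adjusted p of 0.997 over ORs, and 4 members (5.8%) had an unadjusted p under 0.05, against 2.92% of all probe sets tested. Within either set alone no member was called, and neither set called any OR of the series.

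**Figure D5:**
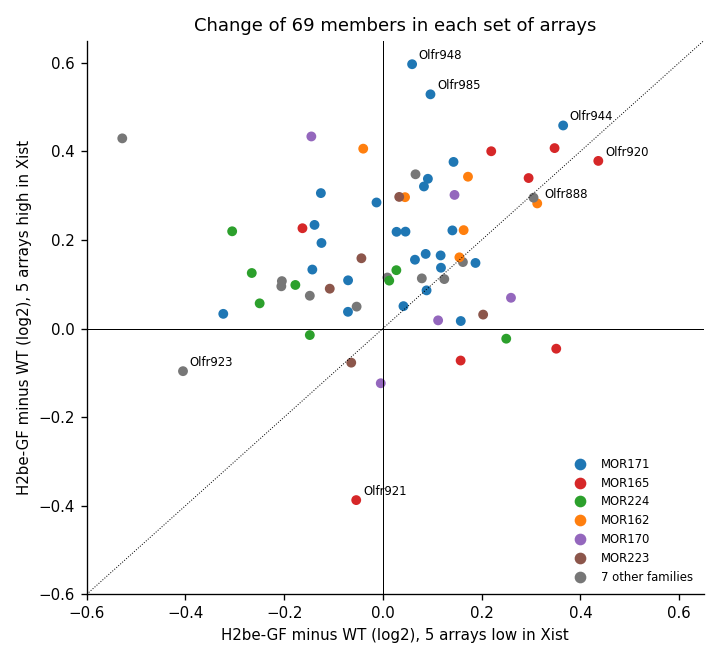
Difference between the H2be-GF and WT means (log2) of the 69 members above 5, with the 5 low-Xist arrays on the x axis and the 5 high-Xist arrays on the y axis, coloured by MOR family; the dotted line marks equal differences. Olfr888, Olfr920 and Olfr944 lie near the line, Olfr948 and Olfr985 far above it, and 52 of 69 members lie above it.

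Genes that are not ORs lie at the borders of the cluster and between its members. Of 13 such genes with a probe set, 3 inside and 5 on either side, 0 were called, 5 had a positive difference and their median was -0.052. The smallest p were those of Nrgn, which encodes the neuronal calmodulin-binding protein neurogranin (7.13 ± 0.049 in H2be-GF, SD, n = 4, and 7.35 ± 0.12 in WT, SD, n = 6; difference -0.21, adjusted p = 0.430 by limma), and of Tbrg1 (difference -0.14, adjusted p = 0.555). The 3 genes inside, Vwa5a, AW551984 and Tmem225, differed by 0.084, 0.12 and -0.038. The 6 probe sets shared by a member with other ORs all had positive differences, of 0.094 to 0.24, none of which was called.

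Markers of the tissue's cell types were read on the same arrays. All 16 markers of mature olfactory neurons were measured and none lay below 5, and their mean level was 11.46 to 11.48 on the H2be-GF arrays and 11.52 to 11.59 on the WT arrays, without overlap. Omp, the classic marker of mature neurons, averaged 12.78 ± 0.027 in H2be-GF (SD, n = 4) and 12.88 ± 0.043 in WT (SD, n = 6). Its arrays did not overlap either, but Omp was not called (unadjusted p = 0.087, adjusted p = 0.659 by limma). Among the 23194 probe sets tested, 299 stood higher and 372 lower in H2be-GF without overlap. The transgene replaces the Omp coding sequence within the Omp genomic region, and whether its transcript reaches the Omp probes was not known here. Cidea and Cnga4 of the same list had differences of -0.21 and -0.13 at an unadjusted p under 0.05. The mean of 4 markers of respiratory epithelium, which holds no olfactory neurons, was 9.27 to 9.35 on the H2be-GF arrays and 9.38 to 9.60 on the WT arrays, with Tekt1 and Foxj1 at differences of -0.19 and -0.16. In both lists the H2be-GF level was the lower one, with median differences of -0.093 and -0.17. Medians of the other lists had either sign, such as 0.093 over the zone genes and -0.065 over odor transduction. The part of these markers in the cluster's values was not tested.

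Of 14 lists of cell type, transduction, receptor choice and zone genes, 13 had no gene called over all probe sets. The exception was Lhx2, a homeodomain factor that binds OR promoters and enhancers, which rose to 11.46 ± 0.034 in H2be-GF (SD, n = 4), against 11.09 ± 0.061 in WT (SD, n = 6; difference 0.37, adjusted p = 0.0425). Its relation to the cluster was not tested. Of the remaining receptor choice genes, Ebf1, the factor named for the Olf1/Ebf site, differed by 0.14 (adjusted p = 0.576). None of 19 measured genes of odor transduction was called, and 1 (Cnga4) had an unadjusted p under 0.05, with Cnga2 next at a difference of -0.12. Among zone genes, Ncam2 and Nrp1 had differences of 0.26 and 0.30 with adjusted p of 0.147 and 0.296. Hist2h2be, which encodes H2BE, averaged 11.84 ± 0.066 in H2be-GF (SD, n = 4) and 12.07 ± 0.051 in WT (SD, n = 6). The arrays did not overlap, as in 372 probe sets lower in H2be-GF of the 23194 tested. The difference was -0.23 (unadjusted p = 0.00218, adjusted p = 0.297 by limma). From quantitative PCR, the paper reports a transgene level well above that of the endogenous gene in this line. Since the place of the Hist2h2be probes relative to the transgene was not known here, the array value checks no label.

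In the other lists the genes with the smallest p had these differences: Dcx 0.049 and Ncam1 0.037 among immature neurons, Neurog1 0.16 and Mki67 -0.16 among progenitors, Hes1 -0.19 and Ermn 0.088 among sustentacular cells, and Muc2 0.10 and Bpifb9b -0.21 in Bowman glands. They were 0.13 for Icam1 and -0.17 for Krt14 among horizontal basal cells, -0.16 for Trpm5 and 0.11 for Cftr among microvillous cells, and 0.028 for Vmn2r1 and 0.019 for Gnao1 among vomeronasal neurons. Ptprc and Cd68, of blood and immune cells, differed by 0.27 and 0.018, and Col2a1 and Myh4, of cartilage and muscle, by -0.24 and 0.041. Among these, only Neurog1, Hes1 and Ptprc had an unadjusted p under 0.05.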

How the data were processed

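The data are log2 values of 35556 probe sets on 10 Affymetrix arrays, which the authors deposited after summarizing scans with IterPLIER and sketch-quantile normalization in Expression Console and an outlier check. Versions and build are not given in the sources used here. Deposited values ran from 0, the lower limit, to 14.20, with array medians of 7.74 to 7.91 and correlations between arrays of 0.969 to 0.988. Quantile normalization can hide a shift shared by most genes, and dim values are less certain.

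Members and lists were chosen with earlier results of these data known. Genotypes were compared with limma 3.58.1 in R 4.3.3 (two-sided, no covariate), with Benjamini-Hochberg adjustment over ORs with a mean above 7, as in the study's methods, and over all probe sets with a symbol and a mean above 5, at a threshold of 0.05. The procedure was tested on simulated data with independent noise in each probe set. Shifts that many ORs share on an array were not simulated. MOR families and gene order came from RefSeq (GRCm38.p6), and probe sets from the platform annotation.

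Receptors were named if the test called them, if genotypes did not overlap, if the unadjusted p was under 0.05 (at most 8 each way), for the 5 highest and lowest means, as neighbours of called members, for alike sequence, or for likeness to the receptor with the smallest p. Per list the 2 genes with the smallest p were named, and of non-OR neighbours likewise. Likeness was planned over proteins, which were not used here, and was taken over the first 50 coding bases, a choice made after seeing the data. Alternatives covered the normalization, filters, Xist as covariate, array weights, 16 added before log2, the replicate number, the variance model and each array left out. The sets of arrays high or low in Xist were added after seeing the data. Deviations of H2be-GF and WT arrays of the same replicate number correlated at 0.53, 0.22, -0.42 and 0.26. H2be-GF 3 and WT 3, with the value of -0.42, are the only such arrays that differ in Xist set. These values do not settle whether the numbers are pairs, and the main fit did not take them as pairs.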

Additional observations from a re-analysis of the deposited data

Results flagged for a closer look

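Among the named receptors, 50 sets of values (1 receptor in 1 genotype) were searched for an array that stands far from the rest by Dixon's criterion, which chance meets in about 1 of 20 sets, and 7 met it. H2be-GF 4 stood low in 3 receptors, with 2.82 for Olfr936 (the others 5.22 to 5.40), 9.06 for Olfr957 (9.38 to 9.43) and 9.05 for Olfr969 (9.31 to 9.33). H2be-GF 3 stood low in Olfr891 at 5.45 (5.76 to 5.81), and H2be-GF 1 stood high in Olfr930 at 6.51 (5.68 to 5.73). Among the WT arrays, WT 3 stood low in Olfr963 at 6.99 (7.20 to 7.28) and WT 6 in Olfr970 at 7.96 (8.35 to 8.58).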

How the results depend on the processing

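The count of members called over ORs was 0, with 74 ORs called in all. It moved to 1 (Olfr888 each time) after centring each array on its OR mean (62 ORs in all) or its median (85) or quantile-normalizing again (85), to 1 with Xist as covariate (Olfr910; 74 in all) and to 4 with a trended, robust variance (Olfr888, Olfr910, Olfr912 and Olfr972; 108 in all). A fit limited to probe sets above 7 called 1 (Olfr888; 92 in all). It ranged from 0 to 3 with 1 array left out, when 33 to 85 ORs were called, and was 0 in the other alternatives. No alternative called a member over all probe sets. The median difference of the members above 5 was 0.11, lay between 0.046 (arrays low in Xist) and 0.16 (arrays high in Xist), and ranged from 0.071 to 0.15 with 1 array left out. In the fit with a replicate block, the median was 0.080 and 0 members were called, while calls over all ORs went to 6, against 74 without it. WT 5 and WT 6 have no H2be-GF array of the same number, so they add nothing to the difference in that fit. It also leaves fewer degrees of freedom, so these values cannot be read as an effect of pairing alone.

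Of 25 named receptors, 8 changed sign in at least 1 alternative. With 1 array left out Olfr936 ranged from -0.47 to 0.39, Olfr908 from -0.056 to 0.079, Olfr891 from -0.22 to 0.027, Olfr911-ps1 from -0.13 to 0.26, Olfr937 from -0.089 to 0.098 and Olfr961 from -0.080 to 0.023. A second quantile normalization gave -0.015 for Olfr911-ps1. In the arrays high in Xist the difference was 0.14 for Olfr936, -0.046 for Olfr908, -0.072 for Olfr911-ps1, 0.033 for Olfr930, 0.038 for Olfr937, 0.098 for Olfr961 and 0.057 for Olfr963. The causes were not tested. The number of arrays and, below 7, the signal limit these values.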
